A study of Homo sapiens with 2 samples.

Results

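A set of 10 genes of bone morphogenetic protein (BMP) signalling was described in HCT116, a human epithelial line derived from a colorectal carcinoma. They are the ligand genes BMP2 and BMP4, the receptor genes BMPR1A and BMPR2, the SMAD genes SMAD4, SMAD6 and SMAD7, and the inhibitor of DNA binding genes ID1, ID2 and ID3. All probe sets annotated to only 1 of these 10 genes were taken, which gave 27 of the 49293 non-control probe sets of the array and covered 9 of the 10 genes. BMPR1A was not analysed here, because no probe set carried its symbol alone in the annotation used. The cells were infected for 72 h, at a multiplicity of infection of 20, with a lentivirus carrying 1 shRNA against RAP1 (shRAP1, construct sh-RAP1-4#) or a negative-control shRNA (shNC). Both groups were infected cultures of the same line, none was left uninfected, and each group held 1 array. The stated aim was to find the effect of RAP1 on colorectal cancer cells.

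BMP ligands bind a pair of type I and type II receptor kinases, and BMPR1A and BMPR2 are such a pair. The type I receptor phosphorylates SMAD1, SMAD5 or SMAD9, which join SMAD4, the partner shared with TGF-beta signalling, and enter the nucleus. The ID genes and the inhibitory SMADs SMAD6 and SMAD7 are among the direct targets. ID proteins hold E proteins and other basic helix-loop-helix factors away from DNA, while SMAD6 and SMAD7 act back on the receptors as feedback inhibitors. In the colon, BMP signalling is known for promoting differentiation towards the upper crypt, and germline mutations of BMPR1A and SMAD4 underlie juvenile polyposis.

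The values are array intensities, summarised per probe set and normalised between arrays by the authors, and log2 was taken of them. Every difference is the log2 value in shRAP1 cells minus that in shNC cells. Since each group held a single array, no difference could be tested or given an error, and this number of arrays sets the precision. A brightness floor was set at 78.0 (6.29 as log2), the median over both arrays without control probes, and a probe set passed it if either of its values was at least that high. A gene was read from its brightest probe set past the floor, which gave 10437 genes. The intensity in shRAP1 cells was set beside a fixed size, at least 25% higher or at least 20% lower than in shNC cells, which is 0.32 on the log2 scale in either direction. As a description of spread, each gene's difference was divided by the SD among the 500 genes closest to it in mean brightness. That SD measures how genes differ from each other and says nothing of variation between cultures.

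The medians of all non-control probe sets were 78.9 on the shRAP1 array and 77.0 on the shNC array. TERF2IP, the telomere protein also called RAP1, had an intensity of 624 in shRAP1 cells against 1311 in shNC cells, on its only probe set. RAP1A and RAP1B, the small GTPase genes that share the name, differed by −0.18 and −0.10. Of 12 markers of colorectal epithelium 7 were past the floor, against 2 of 10 leukocyte markers and 2 of 10 fibroblast and endothelial markers. The leukocyte markers past it were HLA-DRA, an antigen-presentation gene, at 258 in shRAP1 cells against 210 in shNC cells, and CD68, at 89.5 against 81.5. The endothelial ones were VWF, at 125 in shRAP1 cells against 129 in shNC cells, and KDR, at 87.6 against 78.8. PTPRC, CD3E, COL1A2 and PECAM1, defining markers of these cell types, were below the floor. VIL1, a marker of the absorptive brush border, was also below it.

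Most member genes past the floor shared a direction, at small sizes. The members were chosen with earlier results of these data known, so their counts and medians do not describe BMP signalling genes as a class. Of the 7 member genes past the floor, 6 were higher in shRAP1 cells and 1, SMAD4, was lower. Of all 10437 genes, 53.2% were higher. The median difference of these 7 genes was 0.16, against 0.01 for all genes. None of the 7 was at least 25% higher, although ID2 and SMAD6 lay just under that size at 24.9% and 24.8% higher, and 2.49% of all genes were past it. None was at least 20% lower, against 1.92% of all genes. With differences centred on a lowess trend over brightness, those shares of all genes were 1.87% and 2.36%, and ID2 was past the size. Counted by probe sets past the floor, 15 of 20 were higher, against 49.4% of all single-symbol probe sets past the floor. All 5 lower ones belonged to SMAD4, so that 13 of 13 probe sets of the other member genes were higher. Setting SMAD4 apart was done after the signs were seen. With both values required past the floor, 14 of 19 member probe sets were higher. Probe sets of 1 gene share its transcripts, so these counts are not of independent observations. In RNA of a whole culture, fewer cells that express a gene and less RNA per cell cannot be told apart.

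**Figure D1:**
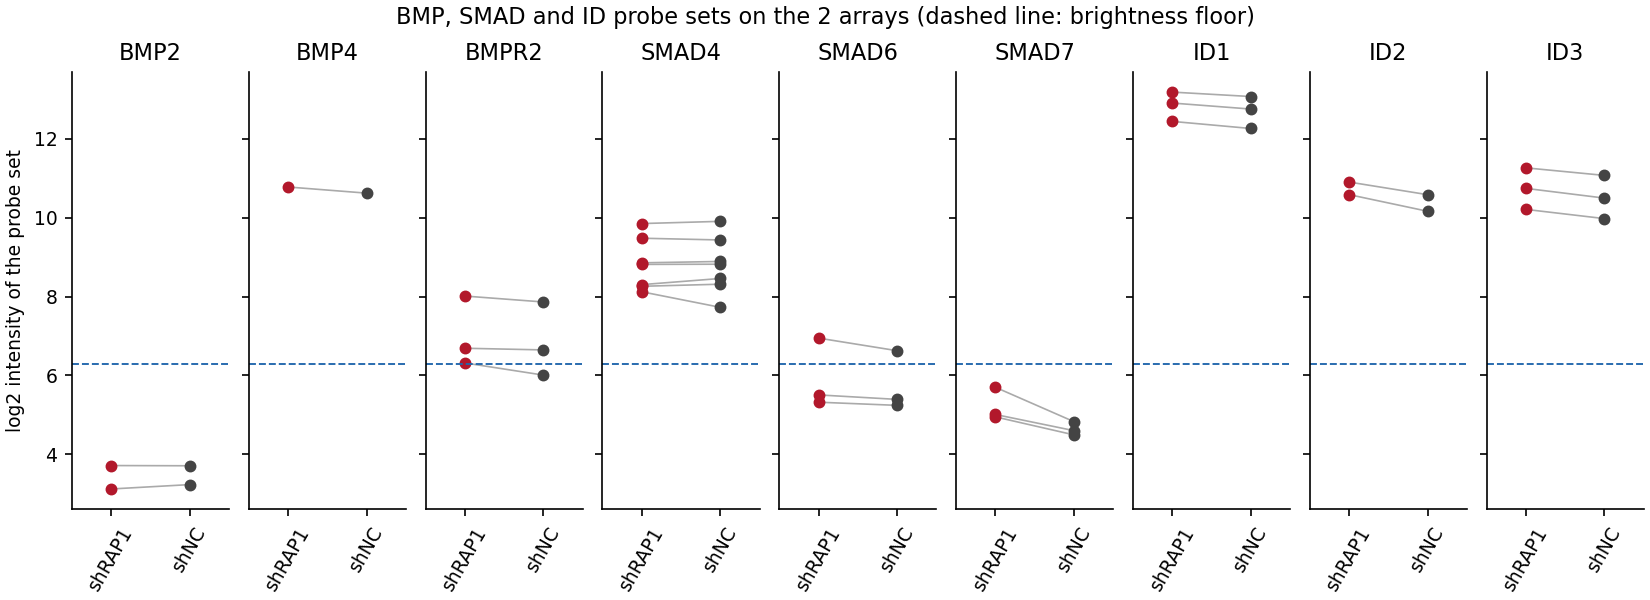
Log2 intensity of each probe set of the 9 genes, with 1 panel per gene, shRAP1 in red at the left and shNC in grey at the right of each panel, and a line joining the values of 1 probe set. The dashed line is the floor at 6.29. All 8 ID probe sets and all 3 SMAD7 probe sets are higher in shRAP1, while the 7 SMAD4 lines run both ways and BMP2 and SMAD7 lie wholly below the floor.

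The ID genes were higher in shRAP1 cells on all of their probe sets, and ID2 differed by more than the other 2. The 250 bases before each annotated start are shown for the 3 ID genes and for SMAD6, the direct targets in this set that were past the floor. Whether SMAD complexes acted at these bases was not tested. The sequences are RefSeq's, of build GRCh38.p14, each read 5′ to 3′ in the direction of its gene: ID1 at chr20:31605039-31605288 (plus strand), ID2 at chr2:8681806-8682055 (plus strand), ID3 at chr1:23559502-23559751 (minus strand) and SMAD6 at chr15:66701986-66702235 (plus strand). Capitals mark exact matches on either strand to GGCGCC or GGCTCC (GC-rich motifs bound by SMAD1 and SMAD5, of which GGCTCC reads GGAGCC on the other strand), to CAGAC (a motif bound by SMAD4, GTCTG on the other strand), or to the E-boxes CAGCTG and CAGGTG (of which CAGGTG reads CACCTG on the other strand).
ID1: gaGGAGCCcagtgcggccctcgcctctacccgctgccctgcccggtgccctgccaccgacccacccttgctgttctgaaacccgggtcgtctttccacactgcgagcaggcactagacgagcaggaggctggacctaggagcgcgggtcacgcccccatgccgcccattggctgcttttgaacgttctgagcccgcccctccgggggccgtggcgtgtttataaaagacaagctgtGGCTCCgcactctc
ID2: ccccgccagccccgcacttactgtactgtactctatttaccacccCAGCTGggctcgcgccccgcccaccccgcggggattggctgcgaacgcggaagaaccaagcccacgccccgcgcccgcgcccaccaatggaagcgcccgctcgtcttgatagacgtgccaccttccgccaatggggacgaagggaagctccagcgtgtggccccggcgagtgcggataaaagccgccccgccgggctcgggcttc
ID3: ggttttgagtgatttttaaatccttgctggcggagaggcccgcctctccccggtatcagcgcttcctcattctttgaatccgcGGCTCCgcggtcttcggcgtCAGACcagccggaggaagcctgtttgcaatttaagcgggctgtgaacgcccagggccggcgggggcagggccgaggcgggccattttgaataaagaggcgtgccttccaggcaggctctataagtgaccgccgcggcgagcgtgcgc
SMAD6: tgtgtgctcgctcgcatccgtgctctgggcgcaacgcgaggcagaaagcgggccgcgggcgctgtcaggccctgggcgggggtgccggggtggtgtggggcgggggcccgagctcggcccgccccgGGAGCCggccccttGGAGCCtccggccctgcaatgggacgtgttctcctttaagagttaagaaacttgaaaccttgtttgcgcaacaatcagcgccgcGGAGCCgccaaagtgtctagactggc

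In these windows ID1 held GGCTCC at 248 and 14 bases before the start. ID2 held 1 match, CAGCTG at 205 bases before the start. ID3 held GGCTCC at 167 and CAGAC at 147 bases before the start, and SMAD6 held GGCTCC at 124, 110 and 26 bases before it. No 2 matches overlapped in these 4 windows. Across the 9 member genes with a promoter in the table (13 windows, since BMP4 and SMAD7 have 3 starts each), GGCTCC matched in 6 windows, CAGAC in 6, GGCGCC in 3, CAGCTG in 2 and CAGGTG in 1. Of all 35116 windows of this length, 30.6% held GGCTCC, 38.0% CAGAC, 16.4% GGCGCC, 14.0% CAGCTG and 17.5% CAGGTG. A match is a run of letters and not a shown binding site.

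ID1, whose protein has no DNA-binding region of its own and blocks E proteins by pairing with them, had intensities of 9274, 7652 and 5543 in shRAP1 cells on its 3 probe sets, against 8579, 6886 and 4894 in shNC cells. These are differences of 0.11, 0.15 and 0.18, so that the 3 probe sets were higher by similar small amounts. The brightest of them stood at 1.16 times the SD of genes of like brightness, and 24.1% of all genes past the floor had a higher difference.

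ID2, known in several tissues for holding back differentiation, had intensities of 1911 and 1532 in shRAP1 cells against 1530 and 1144 in shNC cells. The differences of 0.32 and 0.42 were the largest of the ID probe sets. The first of these was 2.42 times the SD of genes of like brightness, and 2.56% of all genes past the floor had a higher difference. The names of both probe sets end in _x_at or _s_at, the marks of probes that can match more than 1 transcript, so ID2 gave no value without such probe sets.

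ID3, the third inhibitor measured, had intensities of 2451, 1709 and 1182 in shRAP1 cells against 2147, 1441 and 1005 in shNC cells. Its differences of 0.19, 0.25 and 0.23 lay between those of ID1 and ID2 on all 3 probe sets. The brightest was 1.59 times the SD of genes of like brightness, with 11.1% of all genes higher. When probe sets of those 2 name endings were left out, ID3 kept 1 probe set, at 0.25, and ID1 kept 2, at 0.15 and 0.18. ID4, listed among the other BMP targets, was below the floor on all 4 of its probe sets.

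The feedback inhibitors were also higher in shRAP1 cells, with 1 of their 6 probe sets past the floor. Of all 21847 single-symbol probe sets below the floor, 12038 were higher. SMAD6, which blocks BMP type I receptors and competes with SMAD4, had 1 probe set past the floor, at 123 in shRAP1 cells against 98.8 in shNC cells. Its difference of 0.32 was 1.82 times the SD of genes of like brightness, and 2.59% of all genes were higher. The other 2 SMAD6 probe sets, at 45.5 and 40.0 in shRAP1 cells against 42.0 and 37.8 in shNC cells, differed by 0.11 and 0.08.

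SMAD7, which brings ubiquitin ligases to TGF-beta and BMP receptors, was below the floor on both arrays with all 3 probe sets. Their intensities were 52.0, 32.2 and 30.9 in shRAP1 cells against 28.4, 24.3 and 22.5 in shNC cells. The differences of 0.87, 0.41 and 0.46 all had the same direction, and 0.87 was the largest of any member probe set. It was 4.20 times the SD of the 500 probe sets nearest in brightness. Of the 3052 single-symbol probe sets below the floor in the brightness range of these 3, 7.08% were at least 25% higher in shRAP1 cells, and 1 had a difference above 0.87. The other 2 SMAD7 probe sets were exceeded by 3.90% and 2.39% of that set. Because all 6 values lay below the floor, the sizes of the SMAD7 differences are uncertain, and SMAD7 entered none of the gene counts.

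**Figure D2:**
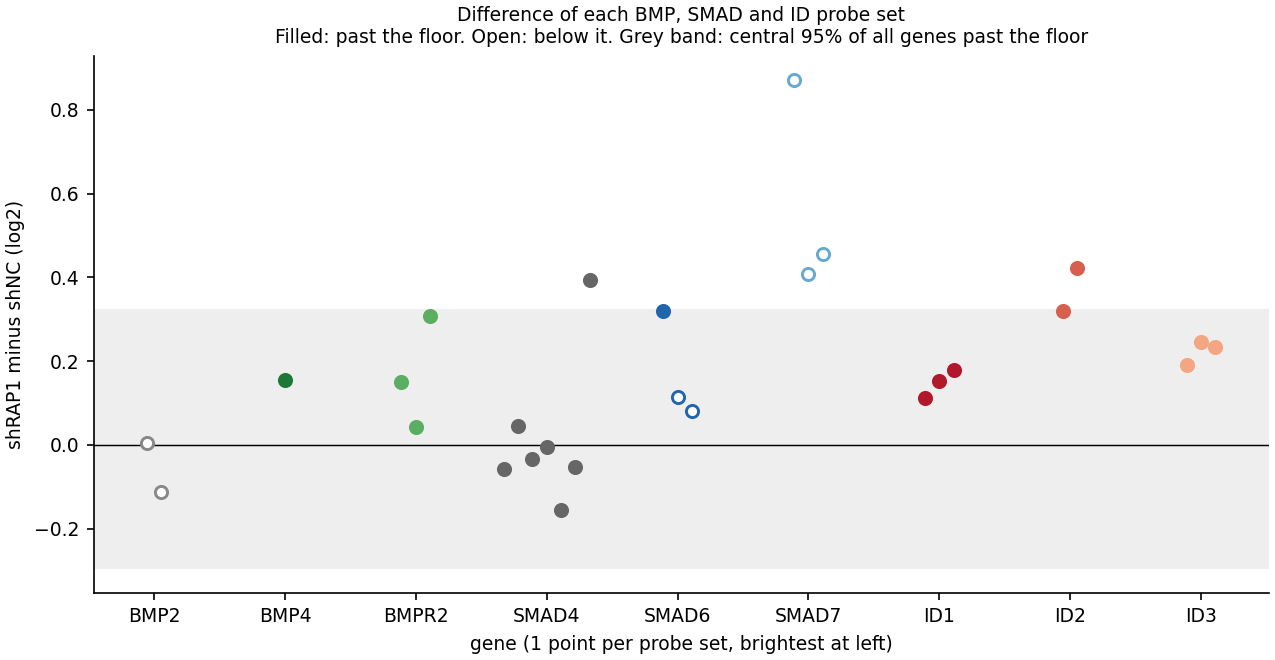
Difference between shRAP1 and shNC (log2, vertical axis) of each probe set of the 9 genes, with the brightest probe set of a gene at the left, filled points past the floor and open points below it. The grey band holds the central 95% of the 10437 genes past the floor, from −0.29 to 0.32. The 3 SMAD7 points, 1 ID2 point and 1 SMAD4 point lie above the band. The band does not describe the spread of probe sets below the floor, such as those of SMAD7.

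SMAD4, the common partner through which BMP and TGF-beta signals reach DNA, did not share the direction. Its 7 probe sets had intensities of 922, 712, 462, 450, 315, 306 and 278 in shRAP1 cells against 958, 691, 474, 451, 351, 318 and 212 in shNC cells. Of the differences, 5 were below 0, the lowest at −0.16, and 2 were above it. The brightest gave −0.06, which was 0.40 times the SD of genes of like brightness. The dimmest probe set, whose name ends in _s_at, stood apart from the other 6 at 0.39, and the median of the 7 was −0.03.

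The ligand and receptor genes were higher by small amounts where they were past the floor. BMP4, a secreted BMP ligand, had 1 probe set, at 1752 in shRAP1 cells against 1572 in shNC cells. The difference of 0.16 was 1.19 times the SD of genes of like brightness, and 16.1% of all genes were higher. BMPR2, the type II receptor that activates the type I receptor, had intensities of 258, 103 and 79.7 in shRAP1 cells against 233, 100.2 and 64.4 in shNC cells. The differences were 0.15, 0.04 and 0.31, and the last rested on a probe set that passed the floor only through its shRAP1 value. The brightest BMPR2 difference was 0.97 times the SD of genes of like brightness. BMP2, a ligand close to BMP4, had intensities of 13.1 and 8.71 in shRAP1 cells against 13.1 and 9.41 in shNC cells, far below the floor on both of its probe sets, so no difference could be read from it.

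**Figure D3:**
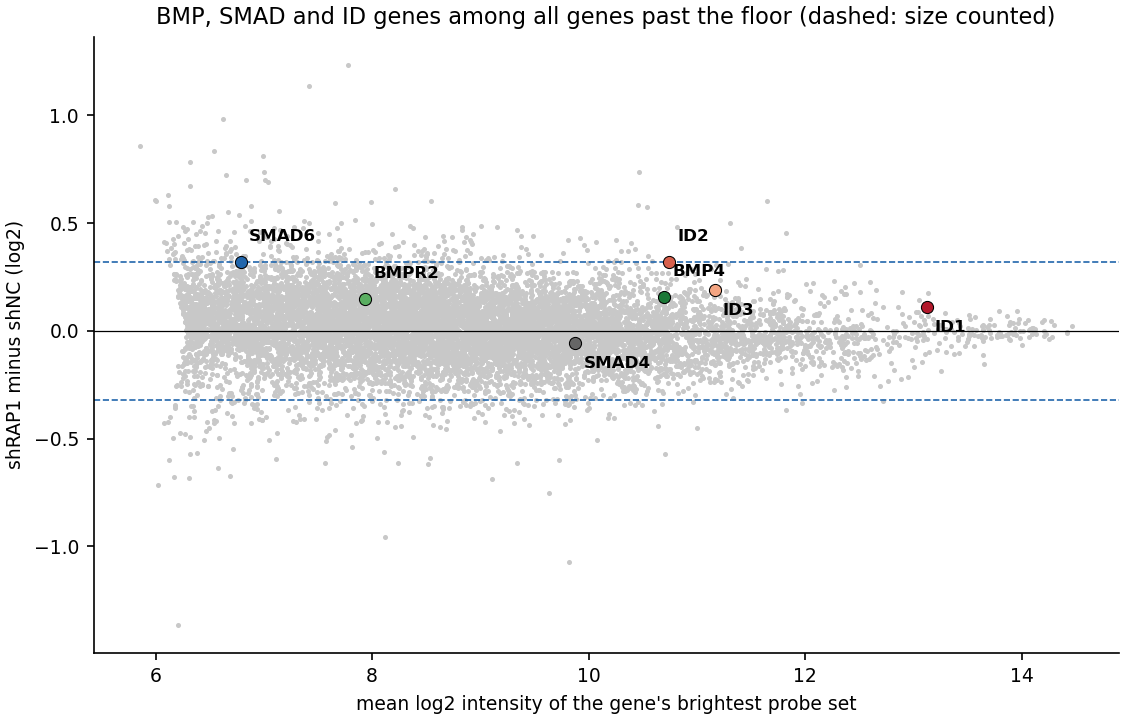
Difference between shRAP1 and shNC (log2, vertical axis) against mean log2 intensity for the 10437 genes past the floor in grey, with the 7 BMP, SMAD and ID genes past the floor coloured and named. Dashed lines mark 0.32 in either direction. ID2 and SMAD6 lie at the upper line, SMAD4 lies below 0, and the cloud narrows towards bright genes such as ID1.

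Some technical probes moved the same way. The array carries background probes sorted by GC content. In classes 16 to 25 all 10 were higher in shRAP1 cells, by a median of 0.11, while in classes 3 to 15 only 3 of 13 were, and their median was −0.02. The GC content of the probes of each gene was not used here. Promoter GC does not measure probe GC, so its use below is no correction for probe GC. The GC content of the 250 bases before each start was known for 8660 of the 10437 genes. When these genes were cut into 10 bins of 866 by promoter GC, the median difference was 0.05 in the highest bin and −0.0020 in the lowest. The promoter GC of the 7 member genes ran from 62.0% in ID3 to 79.2% in BMPR2. After subtracting the median of each gene's bin, the differences were 0.31 for ID2, 0.31 for SMAD6, 0.19 for ID3, 0.16 for BMP4, 0.10 for ID1, 0.10 for BMPR2 and −0.07 for SMAD4. Polyadenylated spike-ins, added to the RNA to follow labelling, went both ways. Dap, Lys and Phe were lower in shRAP1 cells on all 6 probe sets each, with medians of −0.30, −0.41 and −0.29. Thr was higher on all 6, with a median of 0.41. The part of probe GC content or of RNA input and labelling in these differences was not tested.

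The rest of the pathway was read from lists of its other parts. Of the 6 other BMP and GDF ligand genes past the floor, 5 were higher, 1 was lower, the median was 0.14 and none was past the fixed size. The largest were BMP8B, at 340 in shRAP1 cells against 293 in shNC cells (0.21), and its close paralogue BMP8A, at 179 against 155 (0.21), though the other BMP8A probe set past the floor differed by −0.02. Near-identical paralogues such as these can share probes. GDF7 and GDF11, ligands of the same superfamily, differed by 0.15 and 0.14, and the shNC value of GDF11 was below the floor. Named after their values were seen, BMP7 was the lower gene, at −0.04 and −0.06 on its 2 probe sets, and GDF15 differed by 0.07. Of the 5 GDF15 probe sets, 3 were higher.

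Of the 6 other receptor and co-receptor genes past the floor, 4 were higher, 2 were lower, the median was 0.11 and none was past the fixed size. That median was 0.05 with the median of each gene's probe sets or with no floor, and 0.24 with a floor at the 75th percentile. ACVR2B, a type II receptor for activins and some BMPs, had 416 in shRAP1 cells against 342 in shNC cells, and its 2 probe sets differed by 0.28 and 0.26. NEO1, which binds the BMP co-receptors of the RGM family, differed by 0.24 on its brightest probe set and by 0.05 at the lowest of 3. RGMA, one of those co-receptors, differed by 0.18 on its brightest probe set and by 0.01 on the other. The type I receptor gene ACVR1 differed by −0.07, with 1 of its 3 probe sets past the floor at 0.00058. ACVR2A, named after its values were seen, counted as higher at 0.04 on its brightest probe set. Its other 2 probe sets past the floor were at −0.15 and −0.27. The directions thus differed among the receptor genes.

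Among the extracellular antagonists and decoys, 7 were past the floor, 4 higher and 3 lower, with a median of 0.11. CHRD, which binds BMP ligands and keeps them from receptors, was the only one at least 25% higher, at 121 in shRAP1 cells against 94.9 in shNC cells (0.36), although its second probe set differed by 0.05. TWSG1, a secreted partner of chordin, had the lowest value, with 730 in shRAP1 cells against 908 in shNC cells (−0.31) and −0.32 and −0.10 on its other 2 probe sets. BAMBI, a decoy receptor and BMP target, differed by 0.19, and FSTL1, a follistatin-like secreted protein, by 0.15. With a floor at the 75th percentile in place of the median, this list had a median of −0.06.

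The other SMADs past the floor were 4, with 1 higher and 3 lower and a median of −0.03. SMAD1 and SMAD5, which carry the BMP signal, differed by −0.03 each on their brightest probe sets, but 3 of the 5 SMAD5 probe sets were higher and the median of the 5 was 0.02. SMAD2 and SMAD3, which carry the TGF-beta and activin signal, differed by 0.11 and −0.09. All 7 SMAD2 probe sets were higher, and 1 of 5 SMAD3 probe sets was. SMAD9 was below the floor. Of 14 SMAD ubiquitin ligases, phosphatases and corepressors past the floor, 10 were higher and 4 lower (median 0.08). The phosphatase gene CTDSP2 differed by 0.22, but 4 of its 6 probe sets were lower. The corepressor SKI differed by 0.19 with all 3 probe sets higher, the ubiquitin ligase WWP1 by 0.16, and TRIM33, which binds SMAD complexes, by 0.16. The lowest probe sets past the floor were at 0.03 for WWP1, of 2, and at 0.05 for TRIM33, of 3. The 4 lower genes, named after their values were seen, were NEDD4L at −0.16, PPM1A at −0.04, USP15 at −0.02 and USP9X at −0.01. NEDD4L was lower on all 7 probe sets, and USP9X on all 4 past the floor, the lowest at −0.41. PPM1A and USP15 had probe sets on both sides of 0.

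Of the other BMP target genes 11 were past the floor, 7 higher and 4 lower, with a median of 0.10. This list was chosen with earlier results of these data known, so its counts and ranks do not describe BMP targets as a class. RUNX2, a transcription factor of bone formation that BMPs induce in osteoblast precursors, had the highest difference of all 10437 genes, at 337 in shRAP1 cells against 143 in shNC cells (1.24). That value came from its only probe set past the floor, and its other probe set, below the floor, differed by 0.48. MSX2, a homeobox factor, was also past the fixed size, with 241 in shRAP1 cells against 173 in shNC cells (0.48) and 0.20 on its other probe set. GATA3 and DLX2, further transcription factor genes, differed by 0.27 and 0.19. Against these stood MSX1 at −0.04, ATOH8 at −0.07, HAMP at −0.07 and CDKN1A at −0.14, named after their values were seen. With the floor at the 75th percentile the list had a median of −0.04. Of the E proteins, which the ID proteins bind, TCF3 was higher on all 4 of its probe sets, by 0.07 on the brightest and by 0.10, 0.22 and 0.35 on the others. The last of these, at 1047 in shRAP1 cells against 819 in shNC cells, was past the fixed size and nearly as bright as the first. TCF12 differed by −0.08 on its brightest probe set, with 4 of 10 higher, and TCF4 was below the floor on all of its probe sets.

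**Figure D4:**
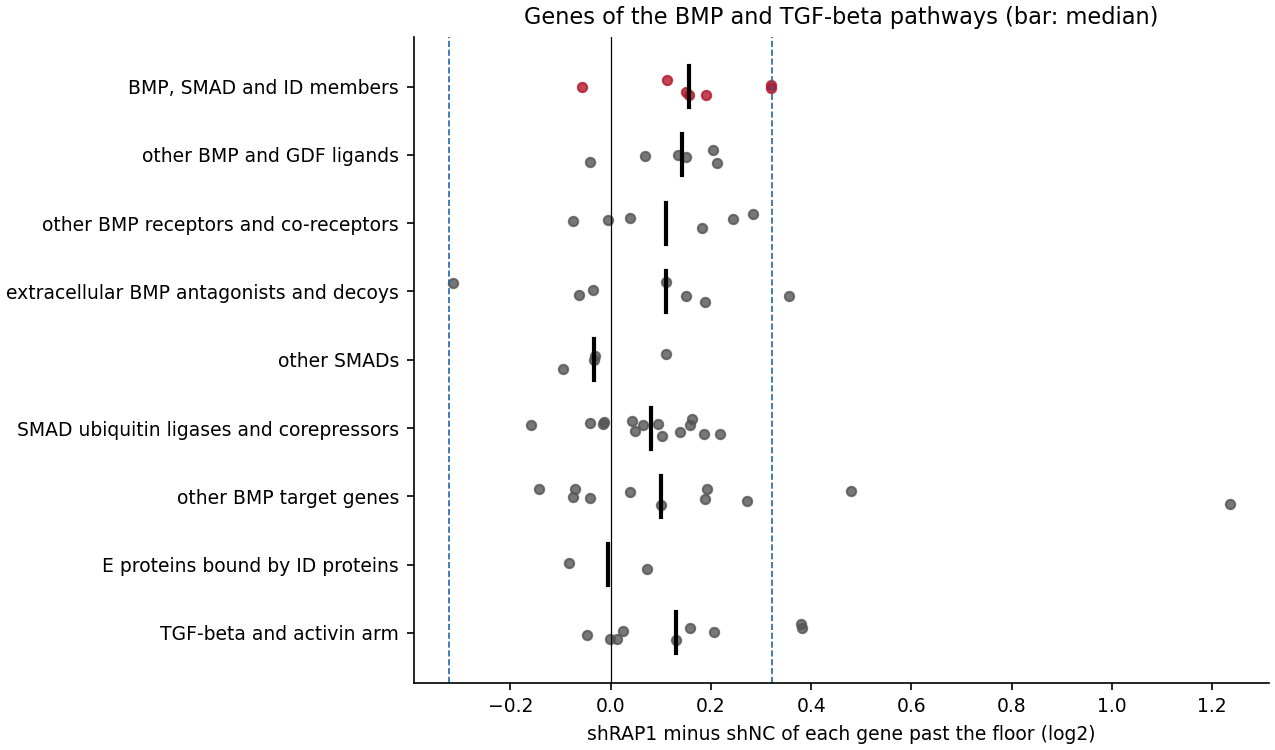
Difference between shRAP1 and shNC (log2, horizontal axis) of each gene past the floor, by list from the BMP, SMAD and ID genes at the top to the TGF-beta and activin arm at the bottom. Points are genes, bars are list medians and dashed lines mark 0.32 in either direction. RUNX2, MSX2, CHRD, LTBP1 and LTBP4 lie to the right of the upper line, and the other SMADs sit around 0.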

How the data were processed

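RNA of 2 HCT116 cultures, 1 per group, was measured on 1 Affymetrix array each. Per the labels' protocols, Trizol was used to isolate total RNA, and a 3′ in vitro transcription kit made biotin-labelled cRNA from it. The deposited intensity values are on a linear scale, and the submitters' processing notes name RMA. No version of it, and no list of the arrays it was run on together, is given in the sources used here. Between-array normalisation hides any change in total RNA per cell.

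From these values log2 was taken with no pseudocount, with numpy 2.4.6, pandas 2.3.3 and statsmodels 0.14.6 under Python 3.11.15. Probe sets were named by the platform annotation, and those with several symbols or none were left out; 0 symbols needed an update through RefSeq. The members and gene lists were chosen with earlier results of these data known. Named were all members, TERF2IP, RAP1A and RAP1B, the 4 genes of largest difference in each list, and all genes of lists with 5 or fewer. The difference calculation was tested on simulated data. Alternatives changed the floor, the probe sets, the gene summary, the centring, an offset and the size counted.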

Additional observations from a re-analysis of the deposited data

How the results depend on the processing

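No paired analysis was possible because each group held 1 array. The median difference of the 7 BMP, SMAD and ID genes past the floor, 0.16, lay between 0.15 and 0.17 under the alternatives that gave a value. The count of BMP, SMAD and ID genes at least 25% higher, 0 with the main settings, was 1 with the median of a gene's probe sets (ID2), 1 with no floor (SMAD7), 1 with lowess centring (ID2) and 5 with a size of 10%, which 19.4% of all genes passed. The count of member probe sets higher in shRAP1, 15 of 20, was 9 of 12 when names ending in _x_at or _s_at were left out, which removes probe sets. The median of the E protein list was 0.12 in that setting, from 2 genes. Of 450 recomputed values 438 stayed near the main value, 12 moved and 0 changed sign after passing the size counted. Many of the 438 could not move, so this tally is no measure of robustness. A gene read from its brightest probe set keeps its value when the floor changes or SMAD4 is left out. Below the size counted, the median of the antagonist list turned to −0.06 with the higher floor and −0.0089 with none, that of the other BMP targets to −0.04 with the higher floor, and that of the E proteins was on both sides of 0. For single genes, MSX2 was at 0.20 and BMP8A at −0.02 without those probe sets, and CTDSP2 and NEO1 were at −0.01 and 0.06 with the median of probe sets. TCF3, 0.07 on its brightest probe set, was at 0.35 without those probe sets and past the size counted. With the median of probe sets RGMA was at 0.10, WWP1 at 0.10, TRIM33 at 0.07 and SMAD5 at 0.02. Over all settings the list medians ran from 0.05 to 0.24 for the receptors, 0.09 to 0.15 for the ligands, 0.05 to 0.09 for the ligases and corepressors, −0.05 to −0.0047 for the other SMADs and 0.08 to 0.16 for the TGF-beta and activin arm. Lowess centring put GDF7 at 0.09 and GDF11 at 0.06. Promoter GC centring, leaving out SMAD4, and requiring both values past the floor were chosen after seeing the data. Intensities near background limit SMAD7, BMP2 and the dim SMAD6 probe sets.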

Other observations

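The TGF-beta and activin arm, which shares SMAD4 and SMAD7 with BMP signalling, was read from a list of 18 genes, of which 9 were past the floor. In shRAP1 cells 7 of them were higher and 2 were lower, while 53.2% of all genes were higher. The median difference was 0.13, against 0.01 for all genes. It was 0.08 when both values of a gene had to be past the floor (this leaves out LTBP1) and 0.09 with lowess centring. Among the 9 genes past the floor, 3 latent TGF-beta binding proteins, which hold the ligands in the extracellular matrix, had the highest differences. LTBP2, of the same family, was below the floor, with 2 probe sets at −0.39 and 0.28. LTBP4 had 468 in shRAP1 cells against 360 in shNC cells, a difference of 0.38, and its 5 probe sets past the floor lay between 0.08 and 0.38. LTBP1 had 90.4 in shRAP1 cells against 69.3 in shNC cells, a difference of 0.38, with the shNC value below the floor. Only 1 of its 5 probe sets was past the floor, and all 5 lay between −0.07 and 0.40. LTBP3 differed by 0.21, with 4 probe sets between 0.07 and 0.29. The activin type I receptor gene ACVR1B differed by 0.16, with 4 probe sets between 0.00061 and 0.27.

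TGFBR1 and TGFBR2, receptor genes of the TGF-beta ligand itself, gave smaller values, named after they were seen. TGFBR2, which is known to carry a frameshift in HCT116, had 744 in shRAP1 cells against 738 in shNC cells, a difference of 0.01. TGFBR1 differed by 0.03 and the ligand gene TGFB1 by −0.05.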
